A study of Mus musculus with 4 samples.

Results

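The elastic fibre and fibulin genes comprised 9 genes of the extracellular matrix, Eln, Fbn1, Mfap4, Mfap5, Ltbp2, Fbln1, Fbln2, Fbln5 and Emilin1, chosen by gene symbol out of the 23282 genes listed for each heart library. Each symbol had 1 value per library, and all 9 genes passed the count minimum in every comparison. Hearts of male CDF1 mice, labelled as postnatal day 28, gave 4 mRNA-seq libraries, 1 for each group. That label matches the age at which the study bought the mice. Tissues were taken only at the end of the experiment, so the hearts were older than labelled. The normal control (E-&T-) had neither exercise nor tumor, the normal exercise group (E+&T-) ran on a motorized treadmill at high intensity, the cancer control (E-&T+) received CT26 murine colorectal carcinoma cells through the tail vein, and the cancer exercise group (E+&T+) received both. The cells were injected into the blood rather than into an organ, and whether a heart library held RNA of 1 mouse or of several was not stated, although the study sampled calf muscle from a single mouse per group and analysed the heart in a similar way. With 1 library per group there was no replicate check, no p-value is given for a condition, and every difference is a difference between libraries.

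Elastic fibres give arteries, heart valves and other stretched tissues their recoil. Cells secrete tropoelastin, the soluble product of Eln, which is gathered on a scaffold of fibrillin microfibrils, cross-linked by lysyl oxidases and kept in place by fibulins and emilins. Smooth muscle cells and fibroblasts are the main producers in the cardiovascular system, and microfibrils also hold latent TGF-β through latent TGF-β binding proteins.

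Libraries were made with the QuantSeq 3′ mRNA-Seq kit, in which a read marks the 3′ end of a transcript. The values are log2(normalized read count + 1), and whole reads were recovered from them. The recovered totals ran from 6595453 reads in E-&T- to 11545918 in E+&T+. In the cancer exercise library 37.3% of the reads were from globin genes, against at most 8.76% in the other libraries. The labelled tissue was borne out by 8 cardiomyocyte markers such as Tnnt2 and Myh6, whose summed normalized read counts ran from 421500 to 476100. Each interval below is a 95% interval of a ratio of reads (Clopper-Pearson) and covers counting error only. As PCR copies are not independent molecules, even the counting error may be larger than these intervals. Comparisons that use the same library are not independent: the normal control is the baseline both of exercise and of cancer, and the cancer control enters both the cancer and the exercise comparison.

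Eln encodes elastin, the protein that makes up the core of the fibre (chr5:134702593-134747323, minus strand, in the GENCODE annotation of GRCm38, the assembly of the mm10 build named in the submitters' processing notes). It had 160 reads in the normal control, 675 in normal exercise, 1079 in the cancer control and 552 in cancer exercise. The log2 values were 7.53, 9.26, 9.9 and 9.24 in the same order. The normal control was thus low, the cancer control was high, and both exercise libraries lay between them. In the deposited values these 2 did not differ beyond counting error, but under library size scaling cancer exercise lay below normal exercise (log2 change −0.73).

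Fbn1 encodes fibrillin-1, the main protein of the microfibril (chr2:125300594-125507993, minus strand). It had 212 reads in the normal control, 396 in normal exercise, 541 in the cancer control and 129 in cancer exercise, with log2 values of 7.93, 8.49, 8.90 and 7.15. Here the cancer exercise library was the lowest, and each library differed from the next in order by more than counting error.

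Mfap5 (chr6:122505845-122529290, plus strand) encodes a small glycoprotein of the microfibril and had the most reads of the 9 genes. It had 377 reads in the normal control, 797 in normal exercise, 1814 in the cancer control and 737 in cancer exercise, with log2 values of 8.76, 9.5, 10.64 and 9.66. The cancer control stood apart above, the normal control below. Mfap4 (chr11:61485431-61488900, plus strand), whose product binds both fibrillin and tropoelastin, was covered by few reads, 18 in the normal control, 50 in normal exercise, 60 in the cancer control and 24 in cancer exercise. Its log2 values of 4.45, 5.53, 5.76 and 4.77 formed a high pair (normal exercise and cancer control) and a low pair (normal control and cancer exercise), and within each pair the libraries did not differ beyond counting error.

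Ltbp2 (chr12:84783212-84876532, minus strand) encodes a latent TGF-β binding protein that attaches to fibrillin. It had the fewest reads, 14 in the normal control, 38 in normal exercise, 16 in the cancer control and 11 in cancer exercise, with log2 values of 4.10, 5.15, 3.91 and 3.71. Only the normal exercise library stood out, and the other 3 did not differ from their neighbours in order beyond counting error. Fbln1 (chr15:85205949-85286535, plus strand), which encodes fibulin-1, had the same order of libraries. Here too the 3 libraries below normal exercise did not differ from their neighbours in order beyond counting error. It had 95 reads in the normal control, 205 in normal exercise, 110 in the cancer control and 69 in cancer exercise, with log2 values of 6.78, 7.54, 6.61 and 6.26.

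Fbln2 (chr6:91212455-91272540, plus strand) encodes fibulin-2, which is abundant in developing heart valves and vessels. It had 428 reads in the normal control, 432 in normal exercise, 854 in the cancer control and 275 in cancer exercise, with log2 values of 8.94, 8.61, 9.56 and 8.24. Among the 9 genes it was the only one whose level was lower in normal exercise than in the normal control. Fbln5 (chr12:101746565-101819055, minus strand), whose product tethers elastin to the cell surface and is needed for fibre assembly, was the most even of the genes. It had 161 reads in the normal control, 268 in normal exercise, 289 in the cancer control and 223 in cancer exercise, with log2 values of 7.54, 7.93, 8.0 and 7.94, and the normal control alone lay below the other 3.

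Emilin1 (chr5:30913402-30921277, plus strand) encodes a glycoprotein found at the border of elastin and microfibrils. It had 96 reads in the normal control, 152 in normal exercise, 196 in the cancer control and 62 in cancer exercise, with log2 values of 6.80, 7.11, 7.44 and 6.11. The cancer exercise library was the lowest beyond counting error, and the cancer control the highest. Over the 9 genes, 7 were highest in E-&T+ and 2, Ltbp2 and Fbln1, in E+&T-, whereas 4 were lowest in E-&T- and 5 in E+&T+. The highest library did not differ from the next beyond counting error for Mfap4 and Fbln5, nor the lowest for Mfap4, Ltbp2 and Fbln1. Under library size scaling Fbln5 was highest in E+&T-, at a log2 change from E-&T- of 0.37, against 0.31 in E-&T+. Mfap4 and Fbln5 were then lowest in E+&T+, at −0.37 and −0.34. Of the 11638 genes whose mean was 16 or more normalized reads, 28.7% were highest in E-&T+ and 22.8% in E+&T-, 24.1% were lowest in E-&T- and 25.4% in E+&T+.

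**Figure D1:**
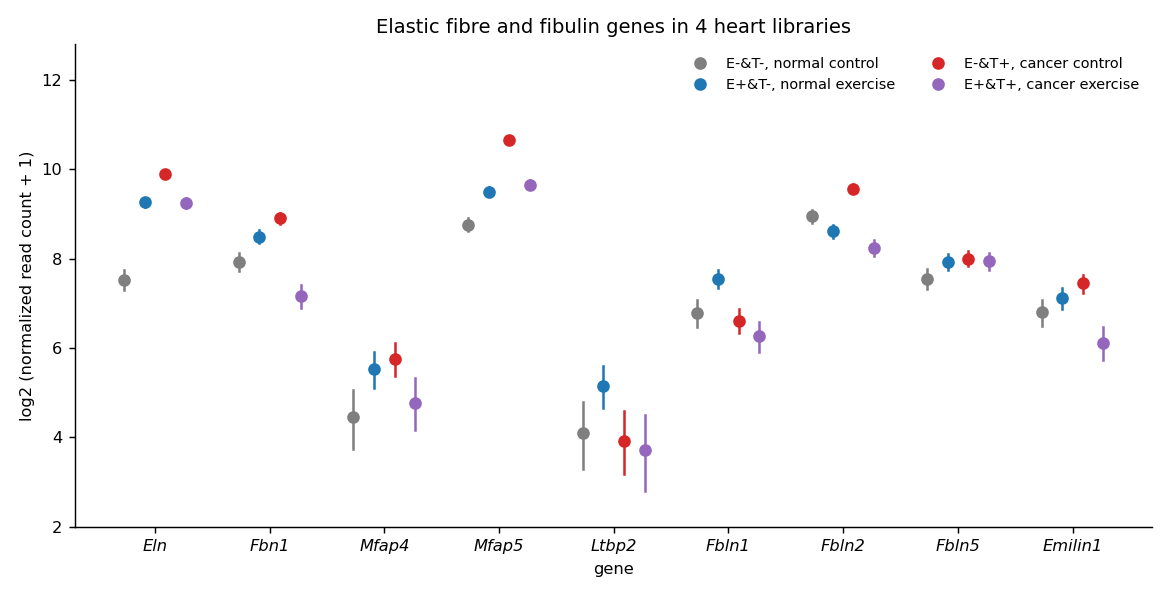
Level of each gene on the y axis, as log2(normalized read count + 1), in the 4 libraries, with genes along the x axis. Points are the deposited values and lines are exact 95% Poisson intervals of the reads. The cancer control is highest for 7 of the 9 genes, for Mfap4 and Fbln5 within counting error of the next library. The lines are longest for Ltbp2 and Mfap4, the genes with the fewest reads.

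Exons of other genes overlap those of some members on the opposite strand, and whether the counting used strand was not stated. Mapk7, which overlaps Mfap4, had 61 to 83 reads in E-&T-, E+&T- and E-&T+ and 42 in E+&T+, so that reads of this pair may not be separable. D030025P21Rik, which overlaps Ltbp2, had at most 2 reads, and no value was listed for Gm30003 and Gm9913, which overlap Eln and Fbn1. No gene of another symbol overlapped the exons of Mfap5, Fbln1, Fbln2, Fbln5 or Emilin1 in the annotation. The number of annotated 3′ ends of coding transcripts ran from 1 for Eln and Emilin1 to 6 for Ltbp2, and a value here is the sum over the 3′ ends of a gene.

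The promoter windows of Ltbp2 and Fbln1 are shown because these genes were highest in normal exercise, unlike the other 7. The order of their lower libraries was within counting error between neighbours. Sequences are those of RefSeq on GRCm38.p6, from 250 bases before to 50 bases after a transcript start, 5′ to 3′ on the strand of the gene. The windows lie at chr12:84876442-84876741 (minus strand) for Ltbp2 and at chr15:85205699-85205998 (plus strand) for Fbln1. Capitals mark matches on either strand to the GC box GGGCGG or to CAGACA, a sequence that contains the core of Smad binding elements.
Ltbp2: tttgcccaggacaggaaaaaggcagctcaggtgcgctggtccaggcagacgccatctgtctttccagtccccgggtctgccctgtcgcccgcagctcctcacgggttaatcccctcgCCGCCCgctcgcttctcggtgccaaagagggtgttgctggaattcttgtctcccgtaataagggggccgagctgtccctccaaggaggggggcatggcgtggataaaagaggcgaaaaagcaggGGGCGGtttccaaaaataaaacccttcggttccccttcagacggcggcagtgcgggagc
Fbln1: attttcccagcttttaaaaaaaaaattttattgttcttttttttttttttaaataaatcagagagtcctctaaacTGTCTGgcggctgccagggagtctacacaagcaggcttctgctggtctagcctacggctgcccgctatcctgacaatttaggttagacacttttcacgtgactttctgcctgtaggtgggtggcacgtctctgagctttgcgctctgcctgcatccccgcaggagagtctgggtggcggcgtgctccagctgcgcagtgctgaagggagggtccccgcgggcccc
The Ltbp2 window held 2 matches to GGGCGG and the Fbln1 window shown 1 match to CAGACA. A further Fbln1 window, from a start farther downstream at chr15:85205758-85206057, held 2 matches to GGGCGG beside 1 to CAGACA and is not shown, as it overlaps the first. Of 32851 RefSeq windows of the same length, 35.7% held GGGCGG and 21.0% held CAGACA. No window of these genes held TGANTCA, the AP-1 motif, or TATAAA, the TATA box, which were present in 7.81% and 13.6% of all windows. These matches describe the sequences only, and no binding was measured.

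The comparison E+&T- vs. E-&T- asked what high-intensity aerobic exercise changed in the heart of healthy mice. The elastic fibre genes were higher after exercise in 8 of 9 cases, and Fbln2 was lower. Eln had the largest difference, 3.31-fold, or 1.73 on the log2 scale (1.48 to 1.99). Mfap4 was higher by 1.09 (0.33 to 2.0) and Ltbp2 by 1.06 (0.18 to 2.1) on the log2 scale. These 3 genes were differentially expressed genes (DEGs) as counted here, with a fold change of 2 or more and 4 or more normalized reads in either library. The study used the same fold and count but did not state in which library, or on which scale, the count of 4 applied.

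Among the other members, Fbln1 was higher by 0.76 (0.41 to 1.13), Mfap5 by 0.74 (0.56 to 0.92), Fbn1 by 0.56 (0.32 to 0.81) and Fbln5 by 0.39 (0.11 to 0.68). The log2 fold change of Emilin1 was 0.32, and its interval, −0.06 to 0.71, included 0. That of Fbln2 was −0.33 (−0.52 to −0.13). The point estimate of Eln was thus above those of the other members, although its interval overlapped those of Mfap4 and Ltbp2. The median over the 9 genes was 0.74, against 0.002 over the 13937 genes past the count minimum. Of those genes, 12.3% were DEGs, and 5.88% were DEGs with a higher level and 6.40% were DEGs with a lower level, against 3 and 0 of the 9 members. If the 4 is read as a log2 value, a minimum of 16 normalized reads, the same 3 and 0 were counted among members, against 3.17% and 3.42% of all genes. With a pseudocount of 4 in place of 1, Mfap4 and Ltbp2 were no longer past 2-fold and Eln alone remained a DEG. The shares of all genes then also fell, to 4.14% with a higher level and 4.23% with a lower level.

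The comparison E+&T+ vs. E-&T+ asked the same of cancer-bearing mice. All 9 genes were lower in the cancer exercise library than in the cancer control. Fbn1 had the largest difference, 3.36-fold, with a log2 fold change of −1.75 (−2.05 to −1.48). It was followed by Emilin1 with −1.34 (−1.79 to −0.93) and Fbln2 with −1.32 (−1.53 to −1.13), and these 3 genes were DEGs.

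Both microfibril-associated glycoproteins lay just short of 2-fold, Mfap5 with −0.99 (−1.11 to −0.86) and Mfap4 with −0.985 (−1.76 to −0.31). Eln was lower by less, −0.66 (−0.81 to −0.51). For Fbln1 the change was −0.35 (−0.82 to 0.08), for Ltbp2 −0.20 (−1.48 to 0.97) and for Fbln5 −0.06 (−0.32 to 0.19), all with intervals that included 0. The median was −0.985, against −0.012 over the 14363 genes past the minimum, of which 19.4% were DEGs, 10.0% with a lower level and 9.39% with a higher level. Scaling the reads to library size, in which the globin reads of E+&T+ weigh in, moved the median of all genes to −0.60, that of the members to −1.55 and the number of member DEGs from 3 to 6, while 25.6% of all genes were then DEGs with a lower level and 3.81% with a higher level. With the globin reads left out of the scaling, an alternative added after the data were seen, 5 members were DEGs, Mfap4 and Mfap5 having passed 2-fold, against 10.4% of all genes with a lower level.

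**Figure D2:**
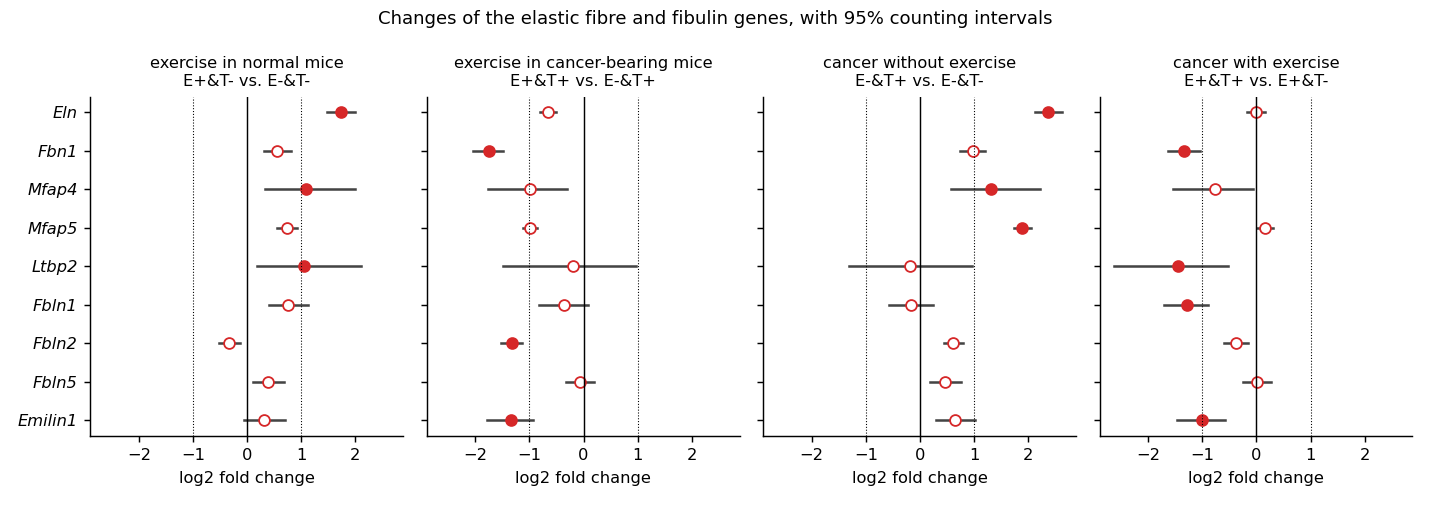
Log2 fold change of each gene (y axis) on the x axis in 4 comparisons, 1 panel each. Filled points are DEGs, open points are not, horizontal lines are 95% counting intervals, and dotted lines mark a 2-fold change; Eln is filled in both comparisons with E-&T- shown here, and all points of E+&T+ vs. E-&T+ lie below 0.

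The changes with exercise were set against each other gene by gene, as the change in cancer-bearing mice minus that in normal mice. This used each of the 4 libraries once. The difference was −2.38 for Eln (exact conditional 95% interval −2.69 to −2.1), −2.31 for Fbn1 (−2.70 to −1.94), −2.07 for Mfap4 (−3.27 to −1.03) and −1.72 for Mfap5 (−1.95 to −1.51). It was smaller for the fibulins, with −1.12 for Fbln1 (−1.72 to −0.55), −0.99 for Fbln2 (−1.28 to −0.71) and −0.46 for Fbln5 (−0.85 to −0.07). Emilin1 had −1.65 (−2.25 to −1.09), and Ltbp2 −1.25 (−2.91 to 0.24), the only interval that included 0. In 8 of 9 genes the change was upward in normal and downward in cancer-bearing mice, a pattern seen in 25.3% of the 11638 genes whose mean was 16 or more normalized reads. These intervals contain no variation between mice.

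**Figure D3:**
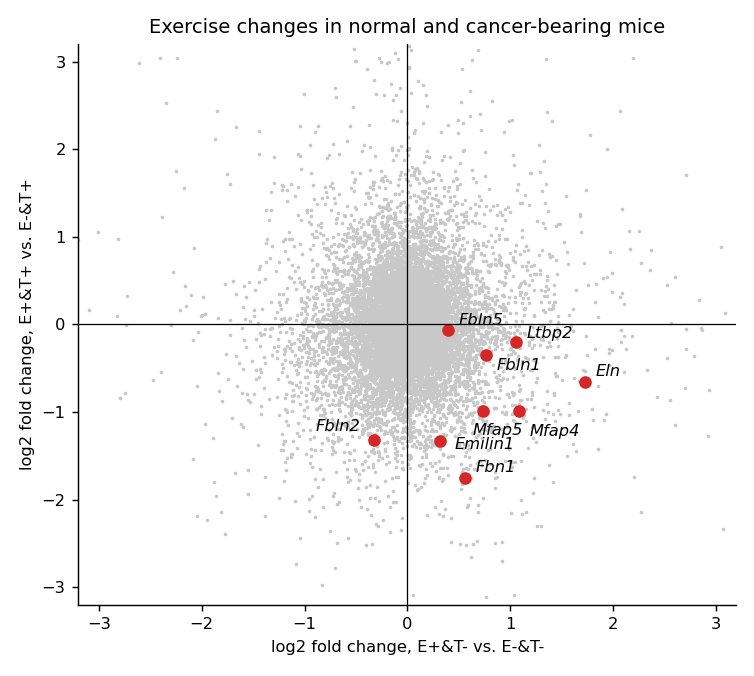
Log2 fold change with exercise in normal mice (x axis, E+&T- vs. E-&T-) and in cancer-bearing mice (y axis, E+&T+ vs. E-&T+). Grey points are the 11638 genes whose mean was 16 or more normalized reads, 48 of which lie outside the plotted range, and red points are the 9 genes; 8 of them lie in the lower right part, Eln farthest to the right and Fbn1 lowest.

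The comparison E-&T+ vs. E-&T- asked what the cancer changed in the heart of sedentary mice. Eln, Fbn1, Mfap4, Mfap5, Fbln2, Fbln5 and Emilin1 were higher in the cancer control, and Fbln1 and Ltbp2 did not differ beyond counting error. Eln was 5.16-fold higher, a log2 fold change of 2.37 (2.13 to 2.62) and the largest of any member in any comparison made. Mfap5 was higher by 1.89 (1.73 to 2.05) and Mfap4 by 1.31 (0.58 to 2.21), and these 3 genes were DEGs. Fbn1 was higher by 0.97 (0.74 to 1.21), just short of 2-fold.

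Emilin1 with 0.65 (0.29 to 1.02), Fbln2 with 0.62 (0.45 to 0.79) and Fbln5 with 0.46 (0.18 to 0.75) were higher by smaller amounts. The changes of Fbln1 and Ltbp2 were −0.17 (−0.58 to 0.24) and −0.19 (−1.31 to 0.96). The median was 0.65, against −0.011 over 14317 genes. In this comparison 27.6% of all genes past the minimum were DEGs, 14.6% with a higher level and 13.1% with a lower level, against 3 and 0 of the 9 members.

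The comparison E+&T+ vs. E+&T- asked the same of exercised mice. No member was a DEG with a higher level, and 4 of 9 were DEGs with a lower level. Of the 14289 genes past the minimum 23.0% were DEGs, 12.0% with a higher level and 11.1% with a lower level. Ltbp2 changed by −1.44 (−2.63 to −0.52), Fbn1 by −1.34 (−1.64 to −1.05), Fbln1 by −1.285 (−1.71 to −0.90) and Emilin1 by −1.01 (−1.47 to −0.58). Emilin1 was at the edge of the definition and no longer a DEG under median-of-ratios scaling (−0.99) or a pseudocount of 4 (−0.98). Eln, the gene that differed most in sedentary mice, had −0.02 (−0.18 to 0.15). This value depended on the scaling. It was −0.73 under library size scaling, with the all-gene median at −0.74. With globin reads left out it was −0.19, with the all-gene median at −0.18, and with genes over 1% of a library left out also −0.19.

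The median over the members was −0.76, against −0.009 over all genes. Mfap4 had −0.76 (−1.55 to −0.06) and Fbln2 −0.38 (−0.60 to −0.16). Mfap5, with 0.16 (0.01 to 0.31), and Fbln5, with 0.01 (−0.25 to 0.27), were at or above the normal exercise level, but both turned negative under library size scaling, to −0.56 and −0.71, with the all-gene median at −0.74, and with globin reads left out, to −0.01 and −0.16.

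Against the normal control, the cancer exercise library (E+&T+ vs. E-&T-) had 1 member DEG, Eln, which was higher by 1.71 (1.46 to 1.98). Mfap5 was higher by 0.90 (0.72 to 1.08) and Fbln5 by 0.40 (0.10 to 0.70), whereas Fbn1 was lower, with −0.78 (−1.11 to −0.46), as were Fbln2 with −0.70 (−0.93 to −0.48), Emilin1 with −0.69 (−1.18 to −0.22) and Fbln1 with −0.52 (−1.0 to −0.07). For Mfap4, 0.33 (−0.60 to 1.31), and Ltbp2, −0.38 (−1.70 to 0.83), the intervals included 0. Of 14335 genes, 24.6% were DEGs, 12.4% with a higher level and 12.2% with a lower level. Under library size scaling Mfap5 stood at 0.16, and Fbln5 and Mfap4 turned negative, to −0.34 and −0.37. Eln then stood at 0.98, no longer a DEG, and 5 members were DEGs with a lower level, with the all-gene median at −0.76 and 37.1% of all genes DEGs with a lower level.

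The make-up of the set differed between libraries as well as its amount. The summed normalized read count of the 9 genes was 1790 in the normal control, 2725 in normal exercise, 4375 in the cancer control and 2277 in cancer exercise. Because 3′ reads do not scale with transcript length, shares of this sum are not weighted by length. They equal shares of transcripts only if the 3′ ends of all genes were captured alike, which was not measured. Eln made up 10.3% of it in E-&T- and from 21.8% to 26.5% in the other 3 libraries. The share of Mfap5 was 24.1% in the normal control, 26.4% in normal exercise, 36.6% in the cancer control and 35.4% in cancer exercise, higher in both libraries with cancer. Fbln2 held 27.4% in the normal control, the largest share there, and from 13.2% to 17.2% elsewhere. Fbn1 had its largest share, 13.6%, in the normal control and its smallest, 6.20%, in cancer exercise.

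**Figure D4:**
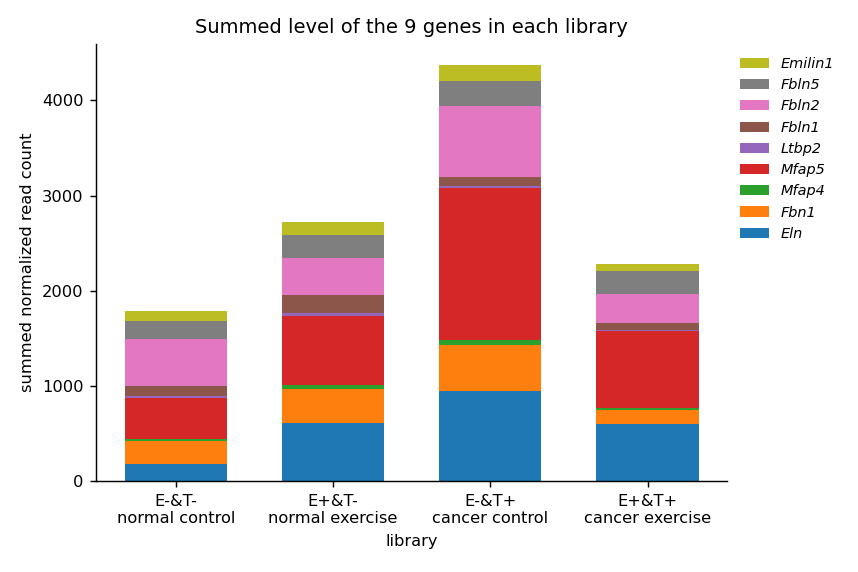
Summed normalized read count (y axis) of the 9 genes in each of the 4 libraries (x axis), with 1 colour per gene. The bar of E-&T+ reaches 4375 and that of E-&T- 1790, and Mfap5 and Eln together fill most of the gap between these bars.

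Lysyl oxidases cross-link elastin and collagen, and 5 of them were listed. In E-&T+ vs. E-&T-, 4 of 5 were DEGs with a higher level, among them Lox, with 562 reads against 31 and a log2 fold change of 3.75 (3.28 to 4.37). Loxl2 was higher by 1.44 (1.16 to 1.73) and Loxl1 by 1.02 (0.81 to 1.24), at the edge of the definition. The remaining DEG, Loxl4, had 18 reads against 1. In E+&T+ vs. E-&T+, 4 of 5 were DEGs with a lower level. Loxl2 changed by −2.17 (−2.54 to −1.84), Loxl1 by −1.06 (−1.28 to −0.86) and Lox by −1.02 (−1.25 to −0.79), while Loxl3 stood at −0.10 (−0.40 to 0.19). Loxl1 and Lox were thus near the edge, and Loxl4 had 4 reads against 18.

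In E+&T- vs. E-&T-, Loxl2 was higher by 1.11 (0.83 to 1.42), on 363 reads against 132, the only DEG of the 4 genes past the minimum. The medians of the list were 0.74 with exercise in normal mice, −1.06 with exercise in cancer-bearing mice and 1.44 with cancer in sedentary mice. In exercised mice 2 were DEGs with a higher level with cancer, among them Lox with 1.96 (1.58 to 2.38), and 1 with a lower level, Loxl2 with −1.84 (−2.22 to −1.51), at a median of −0.08.

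A further 22 genes were listed as relatives and partners of the 9, of which Emilin3 had 0 reads in all 4 libraries. Fbn2 encodes fibrillin-2, the fibrillin of developing tissue. It had 0 reads in the normal control, 24 in normal exercise, 38 in the cancer control and 8 in cancer exercise, and set against a floor of 3 reads in the E-&T- library it was higher by 2.66 on the log2 scale with exercise and by 3.28 with cancer. The lower 95% counting limits, without that floor, were 2.25 and 2.92. Mfap2, a microfibril-associated gene, had 13 reads in the normal control and 127 in the cancer control, a log2 fold change of 2.81 (2.08 to 3.86), and 45 in E+&T+, a change of −1.18 (−1.71 to −0.69) from E-&T+. Mmrn1, of the emilin and multimerin family, had 1.56 (1.03 to 2.19) and −1.59 (−2.20 to −1.06) in these comparisons. Ltbp4 went the other way, with 1290 reads in E-&T- and 507 in both libraries with cancer, a change of −1.72 (−1.88 to −1.58) in E-&T+ vs. E-&T-.

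The medians of these partners lay nearer to 0 than those of the 9 genes. With exercise in normal mice, 2 of 20 past the minimum were DEGs with a higher level and 0 with a lower level, at a median of −0.06. In cancer-bearing mice 3 of 19 were DEGs with a lower level and 0 with a higher level, at a median of −0.43. With cancer in sedentary mice 3 of 20 were higher and 4 lower DEGs at a median of 0.04, and in exercised mice 0 were higher and 4 lower DEGs at a median of −0.36. The list holds Mfap1a and Mfap1b, whose product is known as a splicing factor and which are near-identical copies, so the division of reads between them is uncertain.

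Proteases that cleave elastin or fibre-associated proteins were higher with cancer in sedentary mice, where 9 of 10 past the minimum were DEGs with a higher level at a median of 2.08. Ctss, cathepsin S, was higher by 2.25 (2.07 to 2.43), Ctsl by 2.24 (2.14 to 2.34), Mmp14 by 2.09 (1.84 to 2.37) and the aggrecanase Adamts4, on 75 reads against 2, by 4.26 (2.95 to 7.92). In E+&T+ vs. E-&T+, 6 of 10 were DEGs with a lower level, at a median of −1.23, including Mmp14 with −1.61 (−1.84 to −1.40) and Ctss with −1.34 (−1.48 to −1.21). With exercise in normal mice only Adamts4 of 9 was a DEG, with 2.56 (1.09 to 6.25) on 22 reads against 2. In exercised mice, 2 of 9 were DEGs with a higher level with cancer and 0 with a lower level, at a median of 0.66.

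Of 9 genes for TGF-β ligands and proteins that activate latent TGF-β, 7 passed the minimum with exercise in normal mice, and Thbs1, thrombospondin-1, was the only DEG, at 2.56 (1.90 to 3.46). Tgfb3 had 155 reads in the normal control, 318 in normal exercise, 77 in the cancer control and 95 in cancer exercise. It was lower with cancer in sedentary mice, at −1.38 (−1.80 to −0.98), and in exercised mice, at −1.46 (−1.82 to −1.13). Itgb3 was higher with cancer in both, at 1.85 (1.28 to 2.57) and 1.57 (1.11 to 2.09). Itgb6 had 29 and 55 reads in the libraries without cancer and at most 1 in those with cancer. With exercise in cancer-bearing mice 0 of 6 were DEGs, at a median of −0.05. With cancer, the DEGs in sedentary mice were 2 of 7 with a higher level and 2 with a lower level at a median of 0.20, and those in exercised mice 1 and 2 of 7 at a median of −0.50.

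In bulk heart RNA, fewer cells of a type cannot be told apart from less RNA per cell, so markers of the producing cells were measured beside the members. Smooth muscle markers were all higher with exercise in normal mice, 5 of 7 as DEGs at a median of 1.39, and their summed normalized read counts were 3633 in the normal control, 8051 in normal exercise, 6554 in the cancer control and 6034 in cancer exercise. Cnn1 was higher by 2.86 (2.40 to 3.45), Tagln by 2.08 (1.82 to 2.37), Acta2 by 1.41 (1.33 to 1.5) and Myh11 by 1.39 (1.21 to 1.59). In this list, as for Eln, the normal control had the lowest sum. The 6 mural cell markers, also of the vessel wall, had instead their highest sum, 4018, in the normal control, and 0 were DEGs in E+&T- vs. E-&T-, where their median was −0.27. With exercise in cancer-bearing mice 0 of the 7 smooth muscle markers were DEGs, at a median of −0.12. Of the 6 mural markers 2 were DEGs with a lower level there, at a median of −0.02. With cancer in sedentary mice 6 of 7 smooth muscle markers were higher, 4 of them as DEGs, at a median of 1.145. In that comparison 0 of the 6 mural markers were DEGs, at a median of −0.70.

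Fibroblast markers, 9 in number, summed to 20100 in the normal control, 25280 in normal exercise, 24560 in the cancer control and 13160 in cancer exercise. Much of this sum was Gsn alone. In the same order it gave 11441 of 17538, 16483 of 27950, 8558 of 27846 and 7879 of 12037 reads. In this list, as for Fbn1, Fbln1, Fbln2, Ltbp2 and Emilin1, the cancer exercise library was the lowest. With exercise in cancer-bearing mice 4 of 9 were DEGs with a lower level at a median of −0.88. Col3a1 changed by −3.31 (−3.46 to −3.16), Col1a1 by −3.09 (−3.28 to −2.91) and Pdgfra, a receptor of fibroblasts, by −1.39 (−1.64 to −1.16), whereas Gsn stood at 0.19 (0.15 to 0.24). These collagens were lower by more than any of the 9 genes. With cancer in sedentary mice 4 of 9 fibroblast markers were DEGs with a higher level and 0 with a lower level, at a median of 0.71. Of 6 adventitial fibroblast markers 0 were DEGs with exercise in either comparison, at medians of −0.13 and 0.34.

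**Figure D5:**
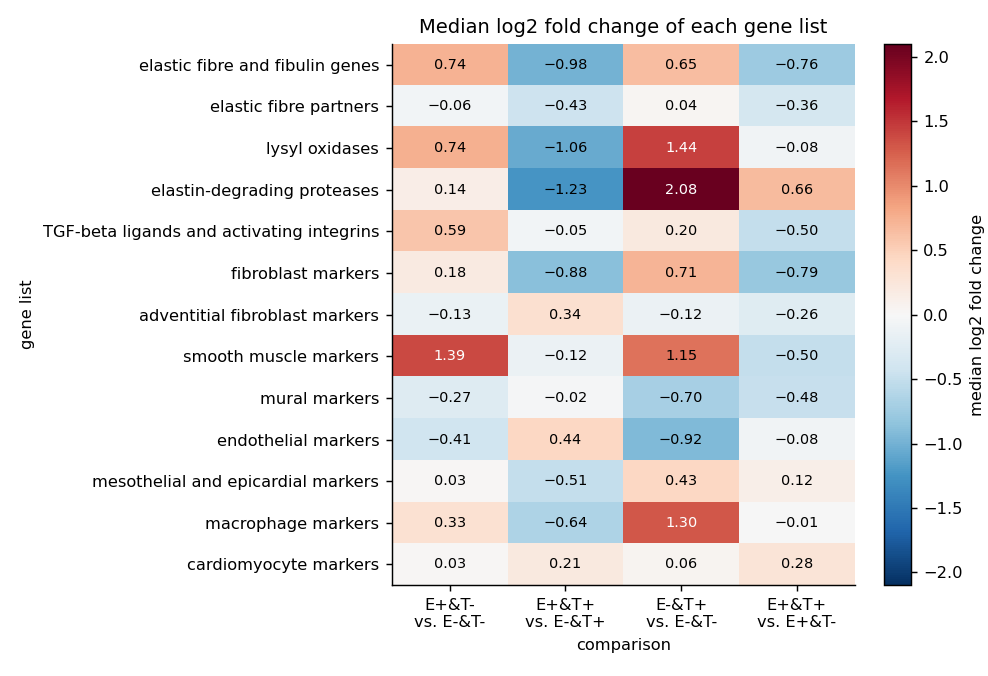
Median log2 fold change (colour and printed value) of each gene list (y axis) in 4 comparisons (x axis), over list genes past the count minimum. The 9 genes are in the top line, with 0.74 and −0.98 for exercise in normal and cancer-bearing mice; the smooth muscle markers reach 1.39 in the first comparison and the fibroblast markers −0.88 in the second.

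Markers of other tissues also differed between the libraries. The summed normalized read counts of 6 lung epithelial markers were 625.5 in the normal control, 165.6 in normal exercise, 567.7 in the cancer control and 1839 in cancer exercise, and those of 5 atrial markers 14780, 18660, 8867 and 28880 in the same order. For 6 adipocyte markers the sums were 2026, 526.4, 434.0 and 2582, and for 6 macrophage markers 2552, 3242, 5277 and 3162. The defining marker Sftpc of lung was present in all 4 libraries, with 38 to 292 reads, and Adipoq with 76 to 356 reads. The cancer control, in which 7 of the 9 genes were highest, had the lowest sums of the atrial and adipocyte markers and the highest of the macrophage markers. Nppa gave 7946 of its 10055 atrial reads. Against the normal control, 4 of the 5 atrial markers were lower in the cancer control and 1, Sln, was higher. Of the 6 macrophage markers 4 were higher and 2, Adgre1 and Csf1r, were lower. Adipocyte sums were low in normal exercise and in the cancer control, and high in the normal control and in cancer exercise. Mfap4, on 18 to 60 reads, was low in the normal control and in cancer exercise, and Eln was low in the normal control alone. No link between these orders was tested. The part of the composition of the dissected tissue in the levels of the 9 genes was not tested.

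The genes most alike in pattern were sought among 7067 genes whose mean was 100 or more normalized reads, by the root-mean-square difference of log2 values centred on their mean over the 4 libraries. Closest to Eln was Tnfrsf12a, with a difference of 0.114 and 35 reads in the normal control, 158 in normal exercise, 267 in the cancer control and 110 in cancer exercise. It was followed by Per1 with 0.147, Olfml2b with 0.183, Ifrd1 with 0.197 and Fcgr2b with 0.217. Of the other members, Mfap5 was closest to Eln, at 0.377, and Ltbp2 farthest, at 1.03. Closest to the median profile of the 9 genes were the matrix genes Bgn, which encodes biglycan, with 0.069, and Pcolce, with 0.070. Vim had a difference of 0.087, Col16a1 of 0.096 and Tnfrsf1b of 0.096. Likeness over 4 libraries is a description of these libraries only.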

How the data were processed

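Heart mRNA-seq libraries of the E-&T-, E+&T-, E-&T+ and E+&T+ groups were analysed. The authors prepared QuantSeq libraries, used Bowtie2 for alignment and Bedtools for counting, and normalized by quantiles with edgeR. Each value in the deposited files is the log2 of a normalized read count plus 1, and the submitters' processing notes name mm10. Versions were not given in the sources used here.

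The design allowed for whole reads where they could be had. Relative library sizes and a common dispersion (fitted at 0.149) were estimated by treating the deposited values as quantile-adjusted negative binomial counts plus 1. Every value was then given back within 0.000529, and 100% of the 25460 values of 5 to 99 reads were whole to within 0.1. The steps were tested on simulated reads.

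Log2 fold changes are differences of deposited values, and the added 1 makes the change of a gene with few reads too small. Depth was 6595453 to 11545918 reads per library. A DEG as counted here needed at least 4 normalized reads in 1 of the 2 libraries and a fold change of at least 2. Intervals are 95% Clopper-Pearson intervals at the fitted sizes, exact conditional intervals for differences of changes, and cover counting error only. Where a library had 0 reads, a separate bound of the change was computed with a floor of 3 reads in that library. DEGs and medians used the deposited values without this floor. No test across groups was made, as each group had 1 library. The members and lists were chosen with earlier results of these data known. Named were all 9 members, up to 4 genes of each of the 4 pathway lists with the largest change where the mean was 16 or more normalized reads, and the 5 genes most alike to Eln and to the median member. Fibroblast and smooth muscle markers, and other relatives of the members, were named after their values were seen. Alternatives concerned normalization, genes over 1% of a library, pseudocount, depth, count minimum and fold threshold. Positions are from GENCODE, promoters from RefSeq, which held 6 of the 9 genes. Computations used scipy 1.17.1 and numpy 2.4.6 under Python 3.11.15, with tables in pandas 2.3.3 and plots in matplotlib 3.10.9.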

Additional observations from a re-analysis of the deposited data

Results flagged for a closer look

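In 4 genes the change with exercise was upward in normal mice and downward in cancer-bearing mice, each beyond counting error. The difference between the changes was −2.38 on the log2 scale for Eln, −2.31 for Fbn1, −2.07 for Mfap4 and −1.72 for Mfap5. With 1 library per group, the difference between normal and cancer-bearing mice has no replicate and was not tested.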

How the results depend on the processing

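Of 120 member counts and medians recomputed under an alternative, 13 moved and 0 changed sign. Scaled to library size, 6 members were lower DEGs with exercise in cancer-bearing mice at a median of −1.55, and E+&T+ vs. E-&T- had 0 higher and 5 lower DEGs at a median of −1.07. In E+&T+ vs. E+&T- this scaling gave 6 lower DEGs at a median of −1.46, in place of 4 and −0.76. Those shifts are not among the 13. The median of all genes stood as low as −0.76 under this scaling, lower DEGs made up 25.6%, 35.3% and 37.1% of genes in the comparisons of E+&T+ with E-&T+, E+&T- and E-&T-, and higher DEGs 3.81%, 5.62% and 6.03%. With cancer in sedentary mice, 12.3% of genes were then higher and 17.0% lower DEGs, close to the 12.5% and 16.2% with genes over 1% of a library left out and the 12.3% and 16.6% with globin reads left out. With exercise in cancer-bearing mice, 5 members were lower DEGs with genes over 1% left out, against 11% of genes, and 5 with globin reads left out, against 10.4%. A pseudocount of 4 left 1 higher DEG with exercise in normal mice, against 4.14% of genes. At a fold of at least 1.5, 5 members were past the fold and higher with exercise in normal mice (11.8% of genes), 6 lower with exercise in cancer-bearing mice (19.5%), 6 higher with cancer in sedentary mice (24.0%), and 2 higher (21.3%) and 3 lower (22.6%) in E+&T+ vs. E-&T-.

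The DEGs among all genes numbered 1711 with exercise in normal mice, and 782 with a minimum of 16 normalized reads, 2798 with no minimum and 3456 at a fold of 1.5. With exercise in cancer-bearing mice there were 2790, and 1628 and 5316 under the higher minimum and the lower fold. With cancer in sedentary mice 3955 became 6824 at a fold of 1.5. In exercised mice 3289 became 2102 with the higher minimum, 5793 scaled to library size and 6065 at a fold of 1.5, and in E+&T+ vs. E-&T- 3523 became 2333, 6149 and 6302. Of 45 member changes, 21 left their counting interval under library size scaling, 4 with globin reads left out and 3 with genes over 1% left out, and members with few reads, Ltbp2 and Mfap4, are limited by depth. In E+&T+ vs. E+&T-, subsampling turned Eln to 0.12 and Fbln5 to −0.06. In the same comparison, leaving out genes over 1% turned Mfap5 to −0.01 and Fbln5 to −0.16, and moved Eln to −0.19. Each member had 1 row, so summing duplicates changed nothing. No paired analysis was possible because each group had 1 library, and leaving out a library would have left out a group.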

Other observations

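Relatives of the members not yet described were chosen after their values were seen, and no difference from the members was tested. Of the latent TGF-β binding proteins, Ltbp3 changed by 0.61 with cancer in sedentary mice (365 reads in E-&T-, 723 in E-&T+) and Ltbp1 by 0.17 (205 and 301 reads), while Ltbp4 and Ltbp2 were at −1.72 and −0.19. Of the fibulin relatives, Efemp2, which is needed for elastic fibre assembly, had 18 reads in the normal control, 28 in normal exercise, 41 in the cancer control and 17 in cancer exercise. Efemp1 had 140, 137, 151 and 89 reads in the same order, with the cancer exercise library lowest. Hmcn1, an extracellular protein of the fibulin family, had 41, 45, 36 and 52 reads, and here the cancer exercise library was highest.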
